A study of Mus musculus with 18 samples.

Results

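Small nucleolar RNAs (snoRNAs) and small Cajal body RNAs (scaRNAs) were followed in bulk RNA sequencing of regulatory T cells (Tregs), a CD4 lineage defined by the transcription factor Foxp3 that limits inflammation and assists repair. A gene was a member when the deposited count tables gave it the biotype snoRNA or scaRNA and when its count per 1000000 counts of the library (CPM) reached 1 in 3 or more of the 18 libraries. This held for 174 of the 1588 genes of these biotypes, among 46078 genes in all. The members comprised 159 snoRNA and 15 scaRNA genes. Of the other genes of these biotypes, 1210 had no count in any library and 204 had counts below the threshold. The threshold thus used the measured level and not any contrast between groups, although members were chosen with earlier results of these data known. A member could meet the threshold through 1 group alone, so counts over the members describe them only. Of the members, 44 reached 1 CPM in all 18 libraries, and 3 did so in spleen libraries alone. Just inside the threshold, the third-highest CPM was 1.01 for Gm23663, 1.02 for Gm24607 and 1.08 for Gm26109, and just outside it was 0.968 for Gm23482, 0.961 for Snord92 and 0.938 for Gm26440.

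The cells were sorted by flow cytometry from male Foxp3(DTR/GFP) mice, a Foxp3 reporter strain, at 10 weeks of age. Injured tissue was taken on day 7 after a defect of the calvarial bone, a volumetric loss of quadriceps muscle, full-thickness punch wounds of the skin, or a myocardial infarction by ligation of the left coronary artery. Each injury gave 3 libraries, every one from cells pooled from 3 mice, and uninjured spleen gave 6 libraries, for which no pooling is stated. The libraries are named in 2 styles in the labels, Tregs (all of bone and muscle, heart replicates 2 and 3, spleen replicates 4 to 6) and Endo (all of skin, heart replicate 1, spleen replicates 1 to 3), and folds below are adjusted for that style. Because bone and muscle are all of the Tregs style and skin all of the Endo style, the adjusted values set bone and muscle mainly against spleen replicates 4 to 6 and skin mainly against spleen replicates 1 to 3.

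SnoRNAs guide the chemical modification of ribosomal RNA in the nucleolus. Box C/D snoRNAs pair with a target and direct ribose methylation by fibrillarin, and box H/ACA snoRNAs direct pseudouridylation by dyskerin. ScaRNAs carry the same boxes and guide modification of the spliceosomal small nuclear RNAs (snRNAs) in Cajal bodies. In vertebrates most of these RNAs are not made from promoters of their own but are cut from the introns of host genes, many of which encode ribosomal proteins, translation factors or nucleolar proteins, or are the non-coding small nucleolar RNA host genes. Proliferating and activated lymphocytes are known to raise ribosome production.

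By name, 41 members were box C/D genes (Snord), 17 were box H/ACA genes (Snora), 5 were Cajal body genes (Scarna), and 111 carried other names, 109 of them Gm clone names. Annotated sequences from GENCODE release M21 on GRCm38 were used to look for the boxes on the transcribed strand. TGATGA was searched within the first 15 bases as C box, CTGA within the last 12 bases as D box, and ACA exactly 3 bases before the 3′ end. Both the C and the D box were found in 22 of the 41 Snord members (53.7%), in 0 of the 17 Snora members and in 26 of the 111 members of other names (23.4%). An ACA end was found in 0 of the Snord members, in 15 of the Snora members (88.2%) and in 58 of the members of other names (52.3%). Among the 1385 other snoRNA and scaRNA genes with a sequence, 17.8% held both boxes and 16.4% an ACA end. A match is a description of the letters and not evidence of a functional box. Lengths ran from 64 to 238 bases in Snord members, with a median of 80, and from 127 to 205 bases in Snora members, with a median of 132.

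The 8 members shown here carry the patterns described in the results: 4 short box C/D RNAs that differed by naming style, 2 ACA-ending RNAs (Snora78 and Gm22442) that were lower in bone, muscle and skin, and 2 RNAs with clone names that were higher in at least 1 tissue. Capitals mark the C and D boxes in Snord49b, Snord100, Snord110, Snord82 and Gm24357, and the ACA end in Snora78, Gm22442 and Gm22748. On GRCm38, Snord49b lies at chr11:62603079-62603150 (+) in an intron of the non-coding gene 2410006H16Rik. Snord100 lies at chr10:23785750-23785823 (-) over an annotated exon of Rps12, Snord110 at chr2:130275506-130275573 (+) in an intron of Nop56, and Snord82 at chr1:86356261-86356330 (-) in an intron of Ncl. Snora78 lies at chr17:24719676-24719803 (-) in an intron of Snhg9, Gm22442 at chr11:69350518-69350661 (-) in an intron of Chd3, Gm22748 at chr12:17546146-17546281 (+) in an intron of Odc1, and Gm24357 at chr9:15315522-15315595 (+) over an annotated exon of Taf1d.
Snord49b: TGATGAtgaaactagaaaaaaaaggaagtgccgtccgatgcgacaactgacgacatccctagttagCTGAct
Snord100: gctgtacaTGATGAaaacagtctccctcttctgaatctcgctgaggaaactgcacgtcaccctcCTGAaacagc
Snord110: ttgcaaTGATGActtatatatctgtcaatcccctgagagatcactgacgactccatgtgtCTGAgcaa
Snord82: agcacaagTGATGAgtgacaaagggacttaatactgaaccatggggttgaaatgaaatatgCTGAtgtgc
Snora78: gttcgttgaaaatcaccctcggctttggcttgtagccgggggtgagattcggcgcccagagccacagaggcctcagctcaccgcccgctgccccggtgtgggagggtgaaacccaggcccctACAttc
Gm22442: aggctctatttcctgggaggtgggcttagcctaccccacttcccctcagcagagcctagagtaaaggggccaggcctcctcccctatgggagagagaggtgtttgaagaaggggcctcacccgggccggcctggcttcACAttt
Gm22748: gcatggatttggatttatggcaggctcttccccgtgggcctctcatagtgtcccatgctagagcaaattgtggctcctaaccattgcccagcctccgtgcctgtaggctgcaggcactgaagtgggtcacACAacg
Gm24357: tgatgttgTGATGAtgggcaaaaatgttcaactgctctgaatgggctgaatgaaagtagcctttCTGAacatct

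Total counts ran from 5970346 to 22635760 per library, and the members took between 0.0952% and 1.435% of them. Treg and T cell markers (Foxp3, Il2ra, Ctla4, Ikzf2, Cd4 and Cd3e) summed to 5624 to 6249 CPM in bone, 7036 to 7551 CPM in skin, 5729 to 6764 CPM in muscle, 5791 to 6872 CPM in heart and 3058 to 4025 CPM in spleen. These 6 names matched 7 gene entries, of which 1 was at 0 in each group. Of the other cell types whose markers were followed, B cell markers summed to at most 77.6 CPM in bone, 11.3 CPM in muscle, 12.9 CPM in skin, 47.6 CPM in heart and 107 CPM in spleen, with 1 of the 6 genes at 0 in muscle and none in the other groups. Erythroid markers summed to at most 2.39 CPM in bone, 0.339 CPM in muscle, 0.358 CPM in skin, 4.32 CPM in heart and 31.2 CPM in spleen, with 5 of the 6 genes at 0 in muscle, 4 in skin, 3 in bone and none in heart or spleen. Macrophage markers summed to at most 17.6 CPM in bone, 15.1 CPM in muscle, 14.98 CPM in skin, 52.5 CPM in heart and 35.98 CPM in spleen, and neutrophil markers to at most 2.82 CPM in bone, 1.38 CPM in muscle, 0.239 CPM in skin, 26.7 CPM in heart and 28.2 CPM in spleen. The part of these cells in the differences below was not tested.

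A pair of libraries stood apart from their groups. Heart replicate 1 held 7307 CPM of member RNA, against 1916 and 1300 CPM in heart replicates 2 and 3, and spleen replicate 4 held 14350 CPM, against 3965 to 6701 CPM in the other spleen libraries. The same libraries were also the highest of their groups for snRNA genes, with 13630 CPM in heart replicate 1 (2492 and 1712 CPM in the other heart libraries) and 13740 CPM in spleen replicate 4 (1753 to 5302 CPM in the other spleen libraries). Spleen replicate 4 was the library with the highest level for 101 of the 174 members and heart replicate 1 for 31. Ribosomal RNA genes took 3.163% and 2.296% of counts in spleen replicates 1 and 2 and at most 0.834% in any other library.

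Member RNA was lower in Tregs of injured bone, muscle and skin than in spleen Tregs, in every library. The summed level of all members was 1443, 1428 and 1278 CPM in bone, 1375, 1182 and 952 CPM in muscle, and 1130, 1310 and 1467 CPM in skin, against a lowest, median and highest of 3965, 5563 and 14350 CPM in spleen. No library of these 3 tissues reached the lowest spleen library. The means were 4.89-fold lower in bone (1383 ± 91.3 CPM, SD, n = 3), 5.79-fold lower in muscle (1169 ± 212 CPM, n = 3) and 5.20-fold lower in skin (1302 ± 169 CPM, n = 3) than in spleen (6766 ± 3837 CPM, n = 6). In bulk samples, fewer cells with the RNA and less of it per cell cannot be told apart.

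Each name class took part in this difference. Snord members summed to 207 ± 45.4 CPM in bone, 220 ± 45.7 CPM in muscle and 161 ± 24.1 CPM in skin, against 1354 ± 1558 CPM in spleen, where the SD exceeded the mean. The ratio of Snord means over spleen was 0.153 in bone, 0.162 in muscle and 0.119 in skin. It depended on the spleen libraries, at 0.275, 0.293 and 0.215 without spleen replicate 4, and at 0.0904, 0.0962 and 0.383 against spleen of the same naming style alone, which is Endo for skin (421 ± 211 CPM). Snora members summed to 91.3 ± 17.6 CPM in bone, 70.7 ± 19.8 CPM in muscle and 66.7 ± 4.60 CPM in skin, against 445 ± 381 CPM in spleen. Their ratio in skin was 0.15, or 0.277 against Endo-style spleen alone, and without spleen replicate 4 it was 0.308 in bone, where it was otherwise 0.205. Scarna members, the least variable name class among spleen libraries, summed to 153 ± 4.46 CPM in bone, 113 ± 42.6 CPM in muscle and 153 ± 41.7 CPM in skin, against 523 ± 70.0 CPM in spleen. Members of other names summed to 932 ± 29.3 CPM in bone, 766 ± 161 CPM in muscle and 922 ± 146 CPM in skin, against 4444 ± 1894 CPM in spleen. For Scarna members the highest library of these tissues, at 194 CPM, lay under the lowest spleen library, at 427 CPM. The 10 members with the highest mean CPM held 47.1% to 61.6% of member counts in the injured tissues and 50.9% to 78.6% in spleen. Corrected for annotated length, the highest mean levels were those of Gm22009 (2355 CPM per kb), Gm22442 (2204 CPM per kb), Snord49b (1400 CPM per kb), Gm24357 (1373 CPM per kb) and Gm23442 (1068 CPM per kb).

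**Figure D1:**
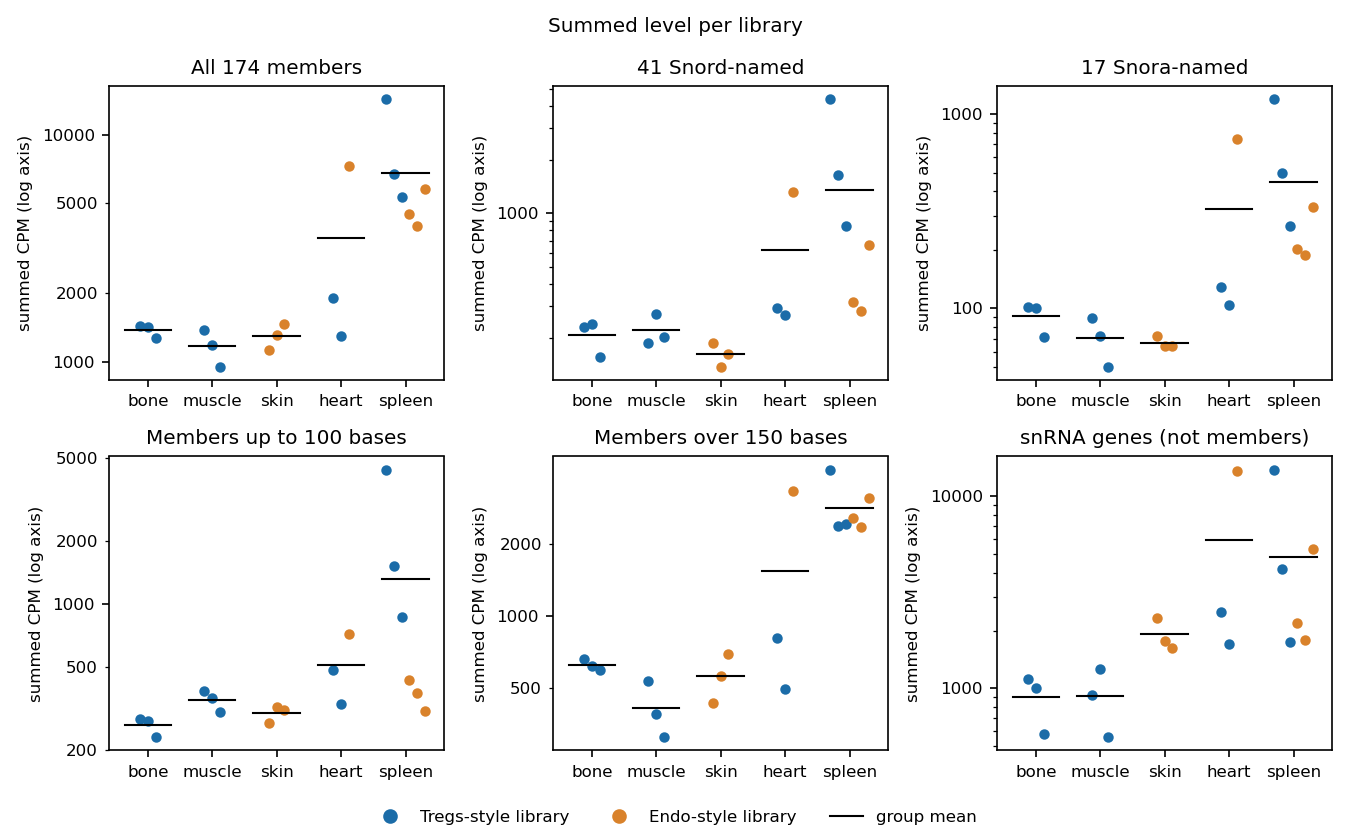
Summed level in CPM on a log axis, 1 point per library and a line at each group mean, for all members, Snord and Snora members, members up to 100 bases, members over 150 bases and, for comparison, snRNA genes. Bone, muscle and skin libraries lie at or under 1467 CPM for all members and every spleen library at or over 3965 CPM, while heart replicate 1 lies at 7307 CPM apart from the other heart libraries.

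The first comparison set Tregs of the bone defect against spleen Tregs. In the test across all genes 171 members could be tested, 3 being too low, and 86 were lower and 0 higher in bone (edgeR quasi-likelihood F test, Benjamini-Hochberg adjusted p under 0.05), against 6.32% of all genes tested lower, 8.48% higher and 14.8% changed in either direction. The median log2 fold change was -2.27 over the members and 0.01 over all genes tested. Among the 44 members that reached 1 CPM in all libraries, 33 were lower and 0 higher. Without spleen replicate 4, 56 of 167 tested members were lower and 2 higher in bone (5.11% and 7.84% of all genes tested), and with Tregs-style libraries alone 80 of 168 were lower and 0 higher (5.48% and 8.55%). A single fit of all 18 libraries gave 49 lower and 0 higher of 174 (5.47% and 8.88%). Of the 171 tested members, 43 did not overlap between groups and were lower in bone, which 5.87% of all genes tested did, and 3 did not overlap and were higher, against 16.8%.

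The most abundant scaRNAs were lower in bone without overlap. Gm22009, a 343-base scaRNA gene with both C and D boxes in an intron of Kpna4, had 354, 307 and 322 CPM in bone, against a lowest, median and highest of 1104, 1679 and 2078 CPM in spleen. Every bone library was thus under every spleen library, and the log2 fold change was -2.43 ± 0.25 (SE, adjusted p = 1.7e-06). Gm22442, a 144-base scaRNA gene with an ACA end in an intron of Chd3 (a chromatin remodeler), had 131, 131 and 139 CPM in bone, against 598, 695 and 840 CPM in spleen. It varied little within either group and fell by 2.66 ± 0.19 on the log2 scale (adjusted p = 1.72e-09). Scarna13, in an intron of Snhg10, had 83.0, 105 and 104 CPM in bone, against 196, 264 and 324 CPM in spleen, without overlap (log2 fold change -1.84 ± 0.21, adjusted p = 2.64e-06). Scarna2, which lies in no annotated host, had 59.3, 45.4 and 39.8 CPM in bone, against 115, 251 and 330 CPM in spleen, also without overlap (log2 fold change -1.89 ± 0.31, adjusted p = 0.000648).

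Box H/ACA members were lower in bone as well, in 9 of 17 tested Snora genes, with a median log2 fold change of -2.67. Snora78, shown above, had 11.04, 12.6 and 4.92 CPM in bone, against 36.4, 51.9 and 247 CPM in spleen. Its groups did not overlap (log2 fold change -3.93 ± 0.58, adjusted p = 0.00061). Snora73b (U17), an H/ACA-type RNA needed for processing of the ribosomal precursor rather than for modification, lies in an intron of Rcc1 and had 47.8, 46.4 and 29.1 CPM in bone, against 90.3, 135 and 591 CPM in spleen. It fell by 3.17 ± 0.62 on the log2 scale (adjusted p = 0.00522), without overlap. Snora57 had 3.40, 2.83 and 2.42 CPM in bone, against 8.38, 29.0 and 98.5 CPM in spleen (log2 fold change -4.36 ± 0.68, adjusted p = 0.000686), again without overlap.

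Box C/D members had the lowest median of the 4 name classes in bone, and 25 of 40 tested Snord genes were lower, with a median log2 fold change of -3.05. Snord49b had 8.22, 6.01 and 4.75 CPM in bone, against 1073, 343 and 167 CPM in Tregs-style spleen and 18.7, 8.04 and 35.96 CPM in Endo-style spleen. Bone lay far below the Tregs-style spleen libraries but reached the lowest Endo-style one, and the adjusted log2 fold change was -6.55 ± 0.91 (adjusted p = 0.00057). Snord100 had 16.1, 15.6 and 7.51 CPM in bone, against 444, 147 and 80.7 CPM in Tregs-style spleen and 1.62, 2.01 and 1.11 CPM in Endo-style spleen. Every bone library was therefore below every Tregs-style and above every Endo-style spleen library (adjusted log2 fold change -4.27 ± 0.63, adjusted p = 0.000792). The calls of Snord100, Snord110, Snord82, Snord87, Snord35a and Snord104 in bone were lost when naming style was left out of the model. These calls thus depend on the adjustment for style. Where a call was lost, the edgeR adjusted p was at most 0.204 (Snord100), and no fold of these genes in bone reversed sign in any alternative. Among the larger box C/D members, Snord17 (238 bases, in an intron of Snx5) had 38.2, 35.8 and 38.7 CPM in bone, against 69.7, 233 and 486 CPM in spleen, without overlap (log2 fold change -3.27 ± 0.57, adjusted p = 0.0027).

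Some box C/D members have roles other than guiding ribose methylation. Snord118 (U8), needed for maturation of the large-subunit ribosomal RNA, had 8.49, 11.4 and 4.92 CPM in bone, against 11.9, 19.7 and 47.2 CPM in spleen, without overlap (log2 fold change -1.98 ± 0.55, adjusted p = 0.0271). That call was lost in 4 alternative settings: without bone replicate 1, without bone library c, without spleen replicate 4 and in a fit of all 18 libraries, where its adjusted p was 0.37, the highest of the 4. Snord13 (U13), which guides acetylation of the small-subunit ribosomal RNA, had 37.0, 35.4 and 21.5 CPM in bone, against 40.9, 82.5 and 268 CPM in spleen (log2 fold change -2.45 ± 0.52, adjusted p = 0.00838). The bone libraries of Snord13 lay just under the lowest spleen library.

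Members with clone names held much of the RNA and were lower in bone too. Gm23442, a 134-base ACA-ending gene in an intron of Prrc2a, had 40.3, 37.5 and 29.2 CPM in bone, against 87.1, 220 and 996 CPM in spleen, without overlap (log2 fold change -4.02 ± 0.60, adjusted p = 0.000929). Gm22154, a 131-base ACA-ending gene in an intron of Pabpc4, which encodes a poly(A)-binding protein, had 19.4, 23.3 and 19.3 CPM in bone, against 51.6, 232 and 628 CPM in spleen, without overlap (log2 fold change -4.57 ± 0.47, adjusted p = 3.89e-05). Gm23639, a 132-base ACA-ending gene in an intron of Epb41l4aos, had 2.15, 3.62 and 1.81 CPM in bone, against 10.2, 40.06 and 160 CPM in spleen, without overlap (log2 fold change -5.34 ± 0.59, adjusted p = 3.28e-05). These 3 calls held in every alternative, in muscle as in bone. Gm26202, a 65-base gene with C and D boxes in an intron of Rpl17, had 2.90, 3.14 and 1.47 CPM in bone, against 378, 103 and 58.0 CPM in Tregs-style and 1.77, 1.84 and 2.21 CPM in Endo-style spleen. It was thus lower than in Tregs-style spleen alone, as was Gm22744, a 65-base gene over an exon of Snhg1, with 0.670, 3.58 and 0.432 CPM in bone, against 123, 31.5 and 19.0 CPM in Tregs-style and 1.62, 0.503 and 1.11 CPM in Endo-style spleen. Gm22442, Gm23442, Gm22154, Gm23639, Gm22748, Snora73b, Snora57, Snora21, Snord118 and Scarna17 each have at least 1 near copy among the annotated genes. Reads may thus be shared between copies.

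In Tregs of the muscle injury, 89 of 171 tested members were lower and 2 higher than in spleen, against 11.3% of all genes tested lower, 14.2% higher and 25.5% changed in either direction. The median log2 fold change was -2.33 over the members and -0.01 over all genes. By class, 24 of 40 Snord, 13 of 17 Snora and 3 of 5 Scarna members were lower, and 48 members of any class were lower without overlap, which 10.5% of all genes were. Without spleen replicate 4 the counts were 61 lower and 2 higher of 167 (9.04% and 12% of all genes tested), and with Tregs-style libraries alone 81 lower and 2 higher of 168 (10.2% and 13.8%). A single fit of all 18 libraries gave 56 lower and 2 higher of 174 (10.1% and 14.2%). Gm22442 had 82.4, 77.4 and 50.8 CPM in muscle, against 598, 695 and 840 CPM in spleen, without overlap (11.04-fold lower, log2 fold change -3.46 ± 0.20, adjusted p = 1.32e-11). Gm22009 had 266, 209.5 and 172 CPM in muscle, against 1104, 1679 and 2078 CPM in spleen, also without overlap (7.58-fold lower, log2 fold change -2.92 ± 0.25, adjusted p = 1e-07). Snora78 had 10.1, 10.1 and 5.34 CPM in muscle and lay under every spleen library (log2 fold change -4.00 ± 0.59, adjusted p = 0.000359). Gm23734, a 109-base gene with C and D boxes in an intron of Mgat5, had 0.777, 1.198 and 1.70 CPM in muscle, against 7.20, 24.3 and 113 CPM in spleen, without overlap (log2 fold change -5.63 ± 0.74, adjusted p = 8.25e-05). Snord8, in an intron of Chd8, had 1.38, 0.449 and 2.97 CPM in muscle, against 9.38, 16.8 and 85.9 CPM in spleen, without overlap (log2 fold change -4.90 ± 0.63, adjusted p = 2.41e-05).

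In Tregs of the skin wounds, 34 of 171 tested members were lower and 1 higher, against 12.8% of all genes tested lower, 15% higher and 27.8% changed in either direction. The members lower made up 19.9% of those tested, and the median log2 fold change was -1.05 over the members and -0.07 over all genes. The count was 79, of which 77 were lower, without the naming style in the model, where the skin libraries are set against both spleen styles alike (15.2% of all genes tested lower). Limma-voom gave 10 lower and 1 higher (9.17% and 12% of all genes tested), and without skin replicate 1 or without skin replicate 2 the counts were 22 lower and 1 higher in each case (8.36% and 9.18% of all genes lower). Without spleen replicate 4, 41 of 167 were lower and 2 higher (11.8% and 16.2% of all genes tested), and with Endo-style libraries alone 45 of 100 were lower and 1 higher (17.6% and 20.8%). In levels, 59 members were lower without overlap, against 15.9% of all genes. Lower were 8 of 40 Snord, 5 of 17 Snora and 3 of 5 Scarna members. Gm22442 had 48.0, 80.4 and 81.1 CPM in skin, against 598, 695 and 840 CPM in spleen, without overlap (log2 fold change -3.17 ± 0.19, adjusted p = 2.04e-11). Gm22009 had 214, 317 and 421 CPM in skin and lay under every spleen library (log2 fold change -2.41 ± 0.25, adjusted p = 6.06e-07). Snora78 had 5.96, 9.21 and 8.36 CPM in skin, against 45.4, 36.4 and 49.2 CPM in Endo-style and 247, 85.6 and 54.6 CPM in Tregs-style spleen. It did not overlap with either spleen style (log2 fold change -2.46 ± 0.58, adjusted p = 0.00729), and the call was lost by limma-voom and without spleen replicates 1 and 2 together. Snord35a, in an intron of Rpl13a, had 0.420, 0.666 and 0.478 CPM in skin, against 6.32, 3.52 and 6.64 CPM in Endo-style and 254, 71.9 and 34.8 CPM in Tregs-style spleen, without overlap (log2 fold change -3.37 ± 0.98, adjusted p = 0.0231), a call lost in 8 alternative settings. Snord87 was among the lower members (adjusted p = 0.0308), at 3 counts over the 3 skin libraries and 2264 over the 6 spleen libraries. Those spleen counts pool both styles, between which Snord87 had a log2 fold change of 5.24 (Tregs minus Endo). They thus overstate the Endo-style level against which skin is mainly set. The call was lost in 8 alternative settings.

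In Tregs of the infarcted heart, 2 of 169 tested members were lower and 3 higher, against 8.46% and 11.8% of all genes tested and 20.3% in either direction, and 3 were lower without overlap, against 9.28% of all genes. The median log2 fold change was -0.51 over the members and -0.03 over all genes. The counts changed with heart replicate 1. Without that library 50 of 170 tested members passed, 49 of them lower and 1 higher, against 6.32% and 8.29% of all genes tested and 14.6% in either direction. Gm22442 had 530 CPM in heart replicate 1 and 118 and 95.9 CPM in heart replicates 2 and 3, against 598, 695 and 840 CPM in spleen. All heart libraries lay under all spleen libraries, and the log2 fold change was -1.63 ± 0.52 (adjusted p = 0.0639), or -2.82 without heart replicate 1 (adjusted p = 8.86e-07). Gm22009 had 1499 CPM in heart replicate 1 and 419 and 208 CPM in the others, against 1104, 1679 and 2078 CPM in spleen, so that the first lay within the spleen range and the others under it (log2 fold change -1.36 ± 0.50, adjusted p = 0.0953, or -2.33 without heart replicate 1, adjusted p = 0.001). Snora73b had 470 CPM in heart replicate 1 and 72.4 and 57.7 CPM in the others, against 90.3, 135 and 591 CPM in spleen, and its log2 fold change was -0.07 ± 1.15 (adjusted p = 0.976). Of the lower members, Scarna2 had 200, 73.1 and 31.4 CPM in heart, against 115, 251 and 330 CPM in spleen (log2 fold change -1.19 ± 0.35, adjusted p = 0.0373), with overlap and a call lost in 6 alternatives. The other was Gm23301, a 65-base gene in an intron of Rpl17, with 0.449, 3.16 and 2.32 CPM in heart, against 50.4, 27.5 and 13.8 CPM in Tregs-style and 1.91, 1.68 and 1.80 CPM in Endo-style spleen (log2 fold change -3.21 ± 0.49, adjusted p = 0.000409), a call lost without the naming style and with replicate blocks.

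**Figure D2:**
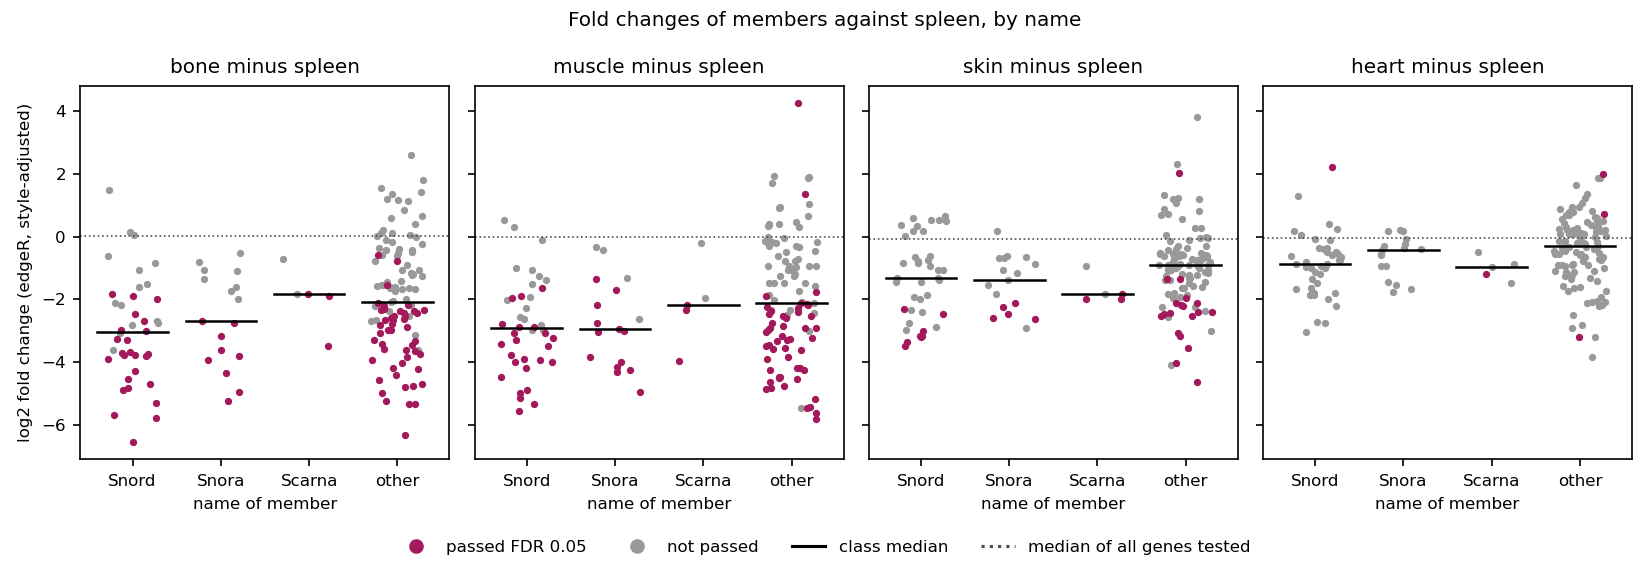
Log2 fold change of each tested member against spleen in bone, muscle, skin and heart, by name class, with members past an FDR of 0.05 in colour, a line at each class median and a dotted line at the median of all genes tested. Over all tested members the bone median is -2.27, the muscle median -2.33, the skin median -1.05 and the heart median -0.51. In heart each class median lies below the dotted line while 5 members are in colour.

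Few members were higher in an injured tissue. Gm22748, an ACA-ending gene in an intron of Odc1, which encodes the rate-limiting enzyme of polyamine synthesis, had 34.1, 31.9 and 36.5 CPM in bone, 66.9, 43.0 and 51.9 CPM in muscle, 30.4, 34.4 and 41.9 CPM in skin and 69.8, 66.0 and 33.1 CPM in heart, against 6.37, 13.3 and 24.9 CPM in spleen. Every library of an injured tissue was above every spleen library. It was 2.58-fold higher in muscle (log2 fold change 1.37 ± 0.22, adjusted p = 6.23e-05), 4.11-fold higher in skin (2.04 ± 0.24, adjusted p = 7.14e-07) and 4.03-fold higher in heart (2.01 ± 0.35, adjusted p = 0.00165), and these 3 calls held in every alternative. In bone its log2 fold change of 0.60 ± 0.22 did not pass (adjusted p = 0.0704). The host Odc1 was 4.65-fold higher in bone, 14.7-fold higher in skin, 10.1-fold higher in muscle and 10.7-fold higher in heart than in spleen. These comparisons share the spleen libraries.

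The other higher members were at lower levels or moved less. Gm23127, over an exon of Ell2 (a transcription elongation factor), had 5.01, 2.55 and 2.37 CPM in muscle, against 0, 0 and 0.449 CPM as lowest, median and highest in spleen, where it was at 0 in 4 of 6 libraries. It was higher in muscle without overlap (log2 fold change 4.27 ± 1.21, adjusted p = 0.0109), and Ell2 itself had a log2 fold change of 3.27 there. Snord19, over an annotated exon of Gnl3 (nucleostemin), had 2.51, 1.62 and 2.08 CPM in heart, against 0.168, 0.383 and 1.11 CPM in spleen, without overlap (log2 fold change 2.21 ± 0.71, adjusted p = 0.042). Gm24357, one of 8 members within Taf1d, had 171, 160 and 97.5 CPM in heart, against 65.7, 88.3 and 123 CPM in spleen, with overlap (log2 fold change 0.71 ± 0.19, adjusted p = 0.017). That call was lost in 4 alternatives, among them without heart replicate 1, and in bone the same gene was lower, at 62.7, 51.3 and 61.5 CPM, under every spleen library (log2 fold change -0.59 ± 0.20, adjusted p = 0.0488), a call lost in 9 alternatives.

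**Figure D3:**
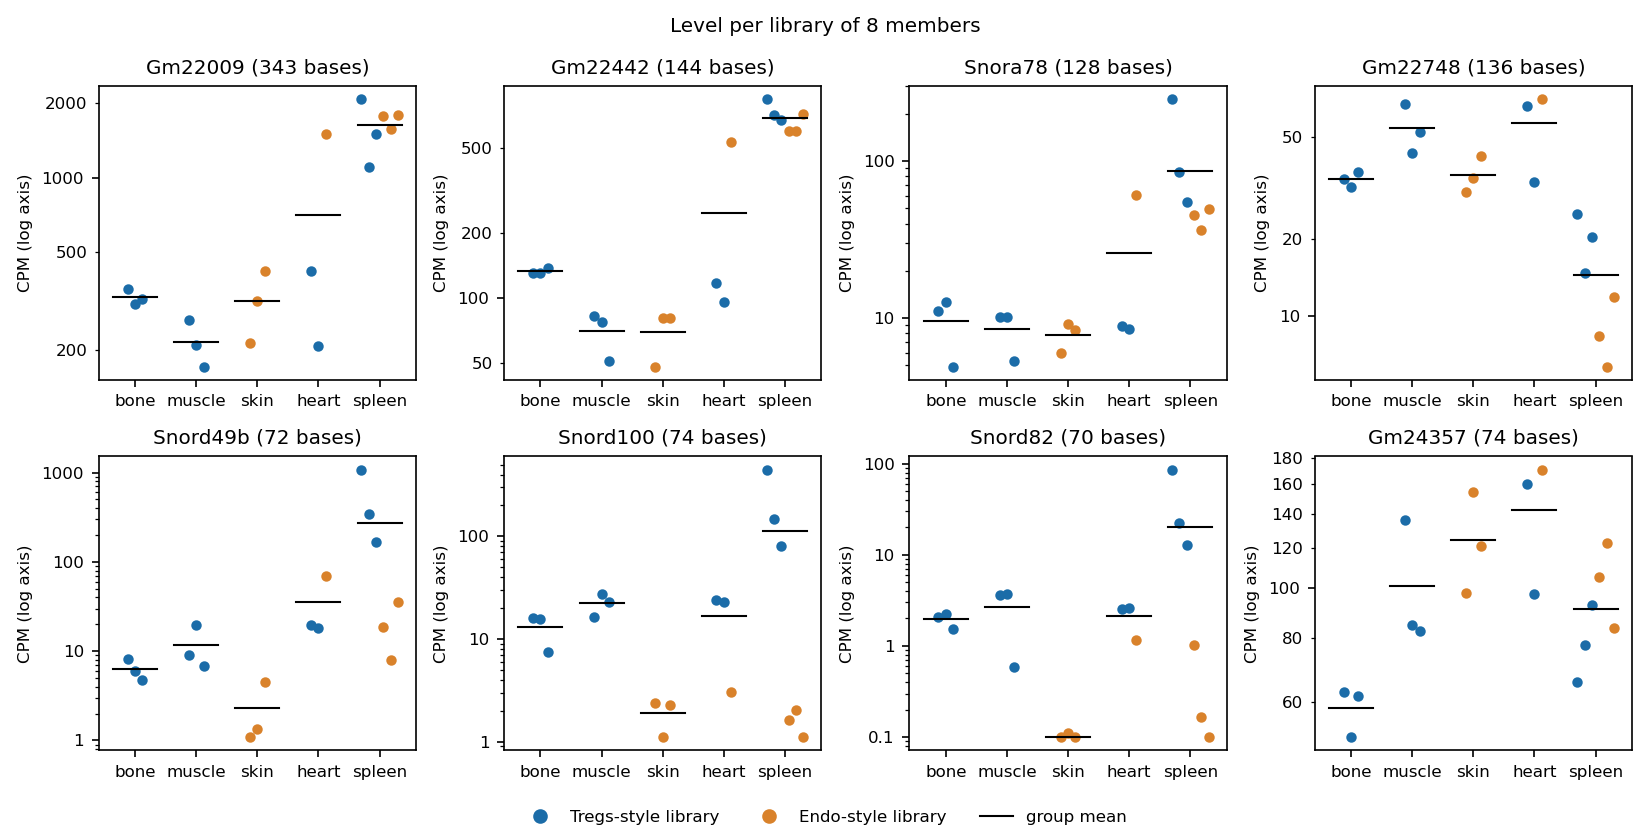
Level in CPM on a log axis of 8 members, 1 point per library coloured by naming style, with a line at each group mean and values under 0.1 CPM drawn at 0.1. Gm22009, Gm22442 and Snora78 lie below spleen in bone, muscle and skin whatever the style, Gm22748 lies above spleen in every injured tissue, and Snord100 divides by style, with Tregs-style libraries at 7.51 CPM or more and Endo-style libraries at 3.05 CPM or less.

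Between naming styles the members differed too. In the fit of bone, muscle, skin and spleen this difference rests on spleen replicates 4 to 6 (Tregs style) against replicates 1 to 3 (Endo style). Of 171 tested members, 35 were higher and 0 lower in the Tregs style, against 3.09% of all genes tested higher, 1.66% lower and 4.74% changed in either direction, and the median log2 fold change was 1.10 over the members and -0.01 over all genes. In levels, 52 members were higher without overlap between the spleen libraries of the styles, which 7.75% of all genes were. The count passing was 21 without spleen replicate 1, 16 without spleen replicate 2 and 2 without both, and limma-voom gave 6 higher and 2 lower. For these settings the share of all genes passing is not given, so the fall cannot be set against that of all genes. Snord members passed in 17 of 40 (median log2 fold change 2.46), Snora members in 4 of 17 (median 1.07), Scarna members in 0 of 5 (median -0.97) and members of other names in 14 of 109 (median 0.91). Snord members summed to 4369, 1645 and 845 CPM in Tregs-style spleen, against 318, 282 and 664 CPM in Endo-style spleen, without overlap.

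The style difference went with length. Of members up to 100 bases, 24 of 70 tested were higher in the Tregs style with a median log2 fold change of 2.20, of those of 101 to 150 bases 10 of 87 with a median of 0.92, and of those over 150 bases 1 of 14 with a median of 0.44. Members up to 100 bases summed to 4388, 1529 and 870 CPM in Tregs-style spleen, against 434, 375 and 307 CPM in Endo-style spleen, a 6.08-fold ratio of means without overlap. Members over 150 bases summed to 4094, 2387 and 2423 CPM in Tregs-style spleen, against 2582, 2365 and 3133 CPM in Endo-style spleen, a 1.10-fold ratio with overlap. Against spleen, after adjustment for style, the share lower was highest over 150 bases, while medians differed little by length. In muscle 32 of 70 members up to 100 bases, 44 of 87 of 101 to 150 bases and 13 of 14 over 150 bases were lower, and in bone these counts were 34, 41 and 11 of the same members. Among all genes tested 11.3% were lower in muscle and 6.32% in bone. In the same order of length, median log2 fold changes were -2.28, -2.36 and -2.47 in muscle and -2.36, -2.27 and -2.15 in bone.

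**Figure D4:**
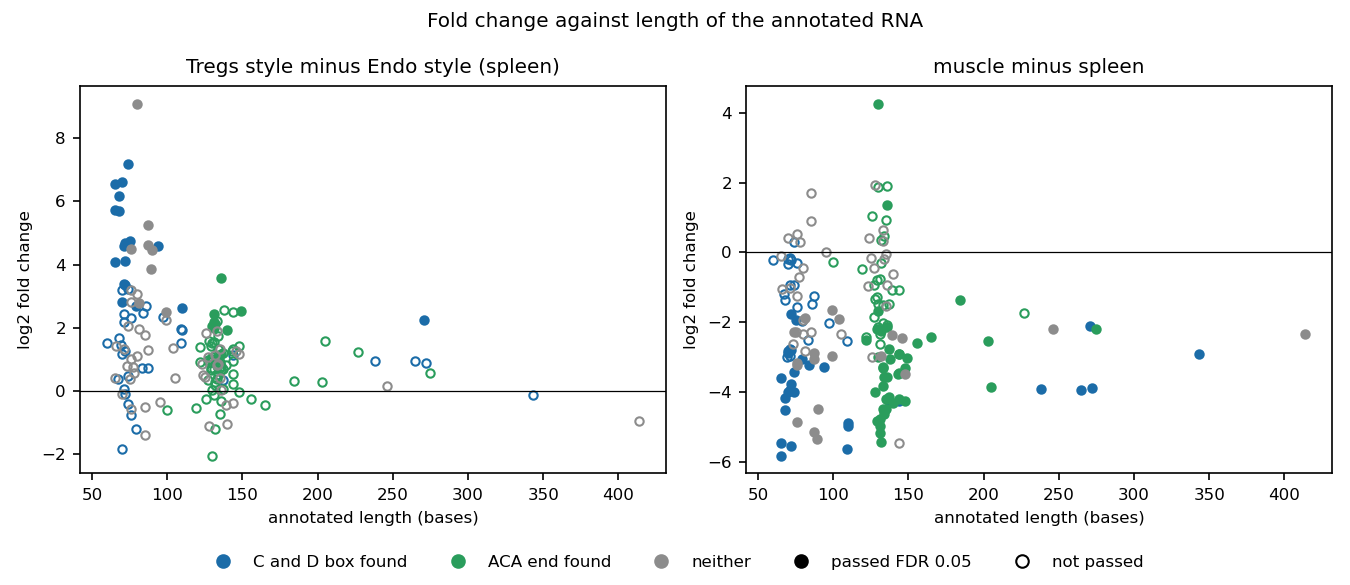
Log2 fold change of each tested member against its annotated length in bases, for Tregs-style against Endo-style spleen on the left and muscle against spleen on the right, coloured by the boxes found and filled where past an FDR of 0.05. On the left the largest fold changes belong to members up to 100 bases, and on the right most members of each length lie below 0.

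Single short box C/D members showed the style difference most plainly. Snord110, in an intron of Nop56, which encodes a core protein of the box C/D particle, had 83.2, 27.6 and 15.2 CPM in Tregs-style spleen, against 1.03, 1.17 and 0.277 CPM in Endo-style spleen, without overlap (51.4-fold, log2 fold change 5.68 ± 0.82, adjusted p = 0.00178). Snord82, in an intron of Ncl (nucleolin), had 85.5, 22.5 and 12.8 CPM in Tregs-style spleen, against 1.03, 0.168 and 0 CPM in Endo-style spleen, without overlap (98.2-fold, log2 fold change 6.62 ± 1.05, adjusted p = 0.00532). Snord100 was 145-fold higher in Tregs-style spleen (log2 fold change 7.18 ± 0.82, adjusted p = 0.00165). The calls of these 3 were lost by limma-voom and without spleen replicates 1 and 2 together.

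The same division was visible across tissues for a few members. Every one of the 11 Tregs-style libraries exceeded every one of the 7 Endo-style libraries for 3 of the 171 tested members (1.75%), against 0.179% of all genes tested, and for 0 members it was the reverse, against 0.192%. They were Snord100, with at least 7.51 CPM in Tregs-style and at most 3.05 CPM in Endo-style libraries, Snord66 (75 bases, over an exon of Eif4g1), with at least 2.32 and at most 0.898 CPM, and Gm23008 (80 bases, over an exon of Ppan), with at least 0.339 CPM in Tregs-style libraries and 0 in Endo-style ones. All 3 are shorter than 100 bases. In heart, where both styles occur, Snord100 had 24.0 and 23.0 CPM in the Tregs-style replicates 2 and 3 and 3.05 CPM in the Endo-style replicate 1, although replicate 1 held the most member RNA of that group. In bone, muscle and skin, tissue and style are tied and cannot be told apart in a raw level.

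Bone and muscle carry the same style and were compared directly. Of 171 tested members, 1 was higher and 3 lower in bone, or 2.34% of them, against 2.57% higher, 2.29% lower and 4.86% changed among all genes tested, and the median log2 fold change was -0.06. Gm22442 was higher in bone, with 131, 131 and 139 CPM, against 82.4, 77.4 and 50.8 CPM in muscle, without overlap (log2 fold change 0.81 ± 0.18, adjusted p = 0.0112). Gm24357 was lower in bone, with 62.7, 51.3 and 61.5 CPM, against 136, 84.7 and 82.7 CPM in muscle (log2 fold change -0.90 ± 0.20, adjusted p = 0.0121), and Gm22748 was lower in bone as well (log2 fold change -0.77 ± 0.22, adjusted p = 0.0437). Snora21 was lower in bone at few reads, with 16 counts over 3 bone libraries and 52 over 3 muscle libraries. Each of these calls was lost without at least 1 library, and 0 members passed without bone library c.

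Host genes were then set beside the members they contain. Of the 174 members, 126 lay in introns of 106 host genes on the same strand, 38 overlapped an exon of 19 host genes and 10 had no host in the annotation, and 145 had a protein-coding host. Reads from a mature member and from an unspliced or exon-bearing host transcript cannot be told apart in these counts. In bone the 151 members whose host was also tested had a median log2 fold change of -2.19, while their 117 hosts, each counted once, had one of -0.21, and the member was below its host in 129. Of 74 lower members in bone, the host was lower for 24, higher for 1 and did not pass for 49. In muscle, of 77 lower members the host was lower for 19, higher for 5 and did not pass for 53, and in skin, of 31 the host was lower for 8, higher for 2 and did not pass for 21. Over the hosts themselves, 24 of 120 tested were lower and 7 higher in bone (25.8% changed, against 14.8% of all genes). For muscle 18 were lower and 12 higher (25.0%, against 25.5%), for skin 20 and 17 (30.8%, against 27.8%), and for heart 8 and 14 (18.3%, against 20.3%).

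Individual pairs varied. Rcc1, the host of Snora73b, was higher in muscle (log2 fold change 0.90, adjusted p = 0.00816), where Snora73b was lower by 3.84 on the log2 scale. Snx5, the host of Snord17, was higher in muscle (0.45, adjusted p = 0.0274) and skin (0.89, adjusted p = 7.72e-05), where Snord17 was lower. Rpl13a, the host of Snord35a, was lower together with it in bone (-1.03, adjusted p = 8.62e-06) and muscle (-0.70, adjusted p = 0.000422). Kpna4 and Chd3, the hosts of Gm22009 and Gm22442, had log2 fold changes between -0.50 and -0.17 in bone, muscle and skin, of which only that of Kpna4 in skin passed (-0.34, adjusted p = 0.0405). Within 1 host, members could differ: of 5 members in Rpl4, Gm23344 had a log2 fold change of -4.98 and Gm22455 one of -0.35 in bone, where Rpl4 itself was at -0.79.

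**Figure D5:**
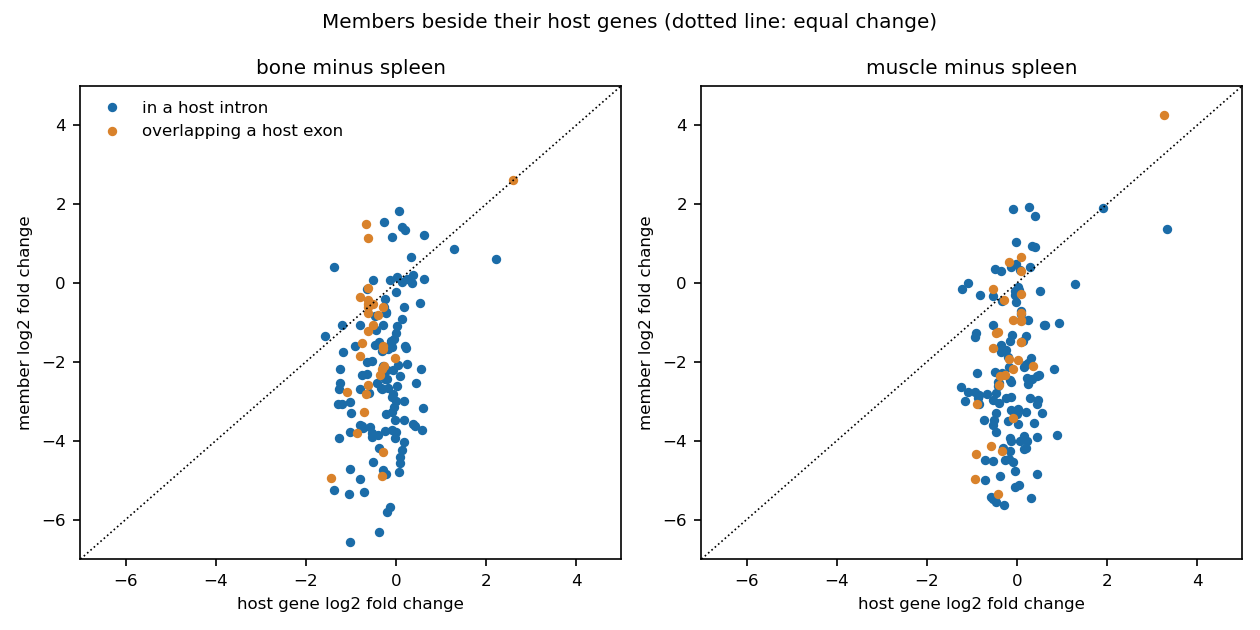
Log2 fold change of each member (vertical) against that of its host gene (horizontal) in bone and muscle against spleen, coloured by whether the member lies in an intron or over an exon, with a dotted line where both change equally. Hosts lie mostly within 2 log2 units of 0 while members reach below -5, and 129 of 151 members in bone lie under the line.

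Among 37 tested genes of a list of known host genes (the Snhg genes, Gas5, and coding hosts such as Rpl13a, Nop56 and Ncl), 17 were lower and 0 higher in bone, so that 45.9% passed, against 14.8% of all genes tested. In muscle 12 were lower and 1 higher (35.1%, against 25.5%). For skin 10 were lower and 1 higher (29.7%, against 27.8%), and for heart 5 were lower and 1 higher (16.2%, against 20.3%). Counted in either direction, these 2 shares were near or under those of all genes. Counting lower genes alone, all genes tested were at 12.8% (skin) and 8.46% (heart). The 10 and 5 lower hosts of 37 were larger shares than these, a difference that was not tested.

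The proteins that carry these RNAs were tested as lists. Of 3 tested core proteins of the box C/D particle, Nop58 was lower in bone (87.8 ± 7.64 CPM in bone, n = 3, against 96.4 ± 23.3 CPM in spleen, n = 6, style-adjusted log2 fold change -0.53 ± 0.17, adjusted p = 0.0318), while Nop56 (-0.20) and fibrillarin (Fbl, -0.71) did not pass there, and none of the 3 passed in muscle, skin or heart. Of 4 core proteins of the box H/ACA particle, dyskerin (Dkc1) was lower in bone (-0.97 ± 0.21, adjusted p = 0.00201) and muscle (-0.76 ± 0.21, adjusted p = 0.00934), and Nop10 was lower in bone (-0.86 ± 0.22, adjusted p = 0.00818), muscle (-0.62 ± 0.22, adjusted p = 0.0393) and heart (-0.48 ± 0.15, adjusted p = 0.0385). Of 14 tested assembly and Cajal body factors, 0 were higher, while bone and heart had 1 lower each, muscle 2 and skin 3. The share changed was 7.14% for both bone and heart, under the 14.8% and 20.3% of all genes tested that changed. It was also under that of all genes for muscle (14.3%, against 25.5%) and skin (21.4%, against 27.8%). Counting lower genes alone, all genes tested were at 6.32% (bone), 8.46% (heart), 11.3% (muscle) and 12.8% (skin). The assembly factor Znhit6 was among the lower factors of each tissue (log2 fold changes between -0.88 and -0.73). Coilin (Coil), which organizes Cajal bodies, and Wrap53, which brings scaRNAs there, did not pass in any of the 4 tissues.

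Of 9 tested genes of other small non-coding RNAs, 5 were lower in bone (55.6%, against 14.8% of all genes tested changed) and 6 in muscle (66.7%, against 25.5%), with 0 higher in either. In skin 2 were lower (22.2%, against 27.8%), in heart 1 (11.1%, against 20.3%), and 0 were higher. Of all genes tested, those lower alone made up 12.8% for skin and 8.46% for heart. Rmrp, the RNA of a ribosomal RNA processing enzyme, averaged 320 ± 42.3 CPM in bone and 206 ± 84.2 CPM in muscle, against 2747 ± 1640 CPM in spleen (log2 fold changes of -3.76 and -4.28, adjusted p = 8.19e-05 and 2.02e-05). Rpph1, the RNA of RNase P, averaged 520 ± 28.0 CPM in bone and 381 ± 159 CPM in muscle, against 2800 ± 576 CPM in spleen. Rn7sk, the RNA that restrains transcription elongation, averaged 6632 ± 874 CPM in bone and 6583 ± 2701 CPM in muscle, against 28870 ± 17890 CPM in spleen. In skin Rmrp (611.5 ± 169.7 CPM, log2 fold change -1.41) and Rn7sk (7133 ± 2022 CPM, log2 fold change -0.81) were the genes that passed, and in heart it was Terc, the RNA template of telomerase (3.07 ± 3.43 CPM, against 14.7 ± 7.06 CPM in spleen, log2 fold change -2.33). Rn7s1, an RNA of the signal recognition particle, was lower in bone and muscle but averaged 44.9 ± 18.6 CPM in skin, against 38.4 ± 17.6 CPM in spleen, and did not pass there. These RNAs have promoters of their own and no host intron, and summed snRNA genes, at 902 ± 284 CPM in bone, 914 ± 350 CPM in muscle and 1913 ± 372 CPM in skin, had lower means than in spleen (4831 ± 4595 CPM), while their mean in heart was 5943 ± 6665 CPM. Their part in the differences of the members was not tested.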

How the data were processed

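Bulk RNA sequencing covered 18 libraries of sorted Tregs. RNA came from a spin-column kit, and 1 ng of total RNA entered the Ovation Solo library kit, per the labels' protocols. The authors deposited raw counts per gene. STAR, featureCounts and limma are listed in the submitters' processing notes, with GRCm38 as build and no versions. No source used here gives the annotation, the strandedness of counting or the fate of multi-mapping reads. Counts are uncertain for 45 members with a near copy (edit distance up to 10% of length) and for 9 members that overlap a gene on the other strand. Recovery of RNAs this short was not measured.

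Genes were filtered by filterByExpr, scaled by TMM and tested with edgeR 4.0.16 in R 4.3.3 (robust quasi-likelihood F test, Benjamini-Hochberg adjustment over all genes, FDR 0.05), with group and naming style in the model. One fit held 15 libraries (bone, muscle, skin, spleen) and another 9 (heart, spleen). SEs derive from the F statistic. CPM is a count per 1000000 of the column total. Alternatives changed scaling or filter, used DESeq2 1.42.0 or limma-voom (limma 3.58.1), other sets of libraries or a replicate block, and left out each library. The fits were tested on simulated data. A host is a gene whose span on the same strand holds the member in GENCODE M21. The columns of 2 bone libraries (b and c) give the group but no replicate number. Deviations of same-numbered replicates had correlations from -0.129 to 0.104, so numbers were not taken as pairs. A p-value here reflects variation among libraries, each from pooled mice in injured tissue.

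Members and gene lists were chosen with earlier results of these data known. Named in each comparison were up to 5 highest and 5 lowest members past the FDR whose mean log2 CPM reached 3, then the 10 of highest mean CPM, a list of well-known members, those nearest the threshold, and in each list up to 2 highest and 2 lowest genes past the FDR. Other named genes, among them Gm23127, Snord19, Snora21, Snord66, Gm23008, Gm23344, Gm22455, the core proteins that did not pass, and the hosts, were chosen after their values were seen.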

Additional observations from a re-analysis of the deposited data

Results flagged for a closer look

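Within the 6 spleen libraries, replicate 4 lay far above the other 5 for 16 of 29 named members, by the gap to its nearest neighbour relative to the group's range. For a single group picked without regard to its values, chance marks about 1 in 20 in this way. That rate cannot be set against the 16 marks, which all come from 1 library. The members were also named partly for their fold changes or levels, to which that library contributed. Among box C/D members its levels were 1073 CPM for Snord49b, 444 CPM for Snord100, 254 CPM for Snord35a, 206 CPM for Snord104, 193 CPM for Snord15a, 113 CPM for Gm23734, 85.9 CPM for Snord8, 85.5 CPM for Snord82 and 83.2 CPM for Snord110. The level of Snord13 was 268 CPM. Among H/ACA members the levels were 591 CPM for Snora73b, 247 CPM for Snora78 and 98.5 CPM for Snora57, and 996 CPM was reached by Gm23442, 378 CPM by Gm26202 and 123 CPM by Gm22744.

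The same library stood apart in summed levels. It held 14350 CPM of all members, of which 4369 CPM came from Snord, 1189 CPM from Snora and 8192 CPM from members of other names. By length, members up to 100 bases summed to 4388 CPM and those of 101 to 150 bases to 5864 CPM. Members with C and D boxes summed to 6946 CPM and those with an ACA end to 5488 CPM. Scarna members, at 596 CPM in that library and 427 to 581 CPM in the other spleen libraries, were not marked.

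Between the injured tissues of the same style, 4 members differed in their change from spleen, tested as bone against muscle (edgeR quasi-likelihood test, Benjamini-Hochberg adjusted p over all genes). The difference in log2 fold change was 0.81 for Gm22442 (adjusted p = 0.0112), -0.90 for Gm24357 (adjusted p = 0.0121), -0.77 for Gm22748 (adjusted p = 0.0437) and -2.48 for Snora21 (adjusted p = 0.0452). The 4 made up 2.34% of the 171 tested members, under the 4.86% of all genes tested that changed. Each call was lost without at least 1 library, 0 members passed without bone library c, and Snora21 was at few reads.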

How the results depend on the processing

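Members passing numbered 86 in bone, 91 in muscle, 35 in skin, 5 in heart, 35 between styles and 4 between bone and muscle. A single fit of all 18 libraries gave 49 in bone, 58 in muscle and 12 in heart. Limma-voom gave 11 in skin, 16 in heart and 8 between styles, and DESeq2 gave 15 in heart. Without a filter the counts were 52 in heart, 62 between styles and 23 between bone and muscle. Without naming style they fell to 61 in bone (59 lower, 2 higher) and to 61 in muscle (58 lower, 3 higher). That setting gave 79 in skin, 2 in heart and 2 between bone and muscle. Scaling to library totals, which shifted the median of all genes in bone to 0.18, left 2 between bone and muscle. Without spleen replicates 1 and 2 the counts were 3 in heart and 2 between styles. The cause was not tested. Leaving out 1 library at a time gave 58 (without spleen replicate 4) to 91 in bone, 63 to 97 in muscle, 23 (without skin replicate 1 or 2) to 43 in skin, 2 to 50 (without heart replicate 1) in heart, 16 to 47 between styles and 0 to 4 between bone and muscle. The ratio of summed Snord level in skin over spleen was 0.119, and 0.383 with Endo-style libraries alone. The Scarna ratio in bone was 0.293, and 0.245 over protein-coding counts.

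Same-numbered replicates showed no sign of pairing, which so few libraries cannot settle, and the block stood in place of naming style. With the replicate block 59 members passed in muscle (47 lower, 12 higher) and 12 in heart. The log2 fold changes in muscle reversed to 1.06 for Gm26202, 1.44 for Snord110, 0.30 for Gm23301, 2.61 for Snord82 and 3.74 for Snord100. In heart the block gave 0.12 for Snora73b and 0.71 for Snord49b, neither past the FDR without it. No blocked value could be had for bone. Heart values leaving out 1 library ran from -3.03 to 0.020 for Snord17, from -2.36 to 0.78 for Snora73b and from -4.86 to 0.18 for Snord49b, lowest without heart replicate 1 in each.

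Of 89 named calls, 35 held in every alternative run, 11 of them in bone, 15 in muscle, 7 in skin, 1 in heart and 1 between styles. Mature RNA and unspliced host transcript share counts, and no fold is given for Snord82 and Snord87 in skin, at 2 and 3 counts there.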

Other observations

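Members within 1 host were common, since 22 host genes held 63 members, with 8 each in Snhg1 and Taf1d and 5 in Rpl4. Terc, the telomerase RNA, which carries an H/ACA domain but is not of these biotypes, was lower in heart (log2 fold change -2.33, edgeR adjusted p = 0.000742), at 7.00, 0.694 and 1.52 CPM in heart, against 8.72 to 24.8 CPM in spleen.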
